A study of Mus musculus with 4 samples.

Results

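The Hox cluster genes were taken as every protein-coding row of the deposited gene table whose name is Hoxa, Hoxb, Hoxc or Hoxd followed by a paralogue number. The rule gave 38 genes of 23875 rows, of which 20674 are protein coding. There were 11 genes in Hoxa, 10 in Hoxb, 9 in Hoxc and 8 in Hoxd, and Hoxd4 was not analysed here. The RNA came from ID8-PW2 cells, a line grown from a peritoneal wall tumor after 2 passages in C57BL/6 mice, and from ID8-P0 cells, the parental line. ID8 is a mouse ovarian surface epithelial line that transformed by itself in culture, of wild type genotype and C57BL/6 background, and the version used here carries GFP and luciferase. Both lines were held off the plate on poly-HEMA for 24 h in DMEM with 4% FBS, and each gave 2 libraries of large RNA from which ribosomal RNA had been reduced. Each group is a single cell line, and the ID8-PW2 line stands for 1 tumor site.

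The 4 columns of reads in the table have headings that none of the sample labels use, and no library could be assigned to any of them. ID8-PW2 and ID8-P0 are therefore not compared here. All levels below are the authors' mean over the 4 libraries, in CPM (reads of the gene scaled to a fixed library total), with no error of their own. From this mean alone, a gene at that level in both lines and a gene at a higher level in only 1 of them cannot be told apart. The authors' own comparison of the lines was not used. No test between groups and no p-value is given.

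Hox genes encode homeodomain transcription factors and lie in 4 clusters, in which the number of a gene gives its place. The low-numbered genes sit at the 3′ end of a cluster and in the embryo are switched on earlier and closer to the head, and the high-numbered genes follow toward the tail. In the female reproductive tract of the mouse, Hoxa9 marks the oviduct, Hoxa10 and Hoxa11 the uterus and Hoxa13 the vagina, while the ovarian surface epithelium derives from the coelomic lining. Polycomb proteins keep silent clusters closed, trithorax proteins keep active genes open, and TALE proteins (Pbx, Meis and Pknox) bind DNA together with Hox proteins.

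The cell identity was looked at first. Of 18 markers of ovarian surface epithelium and mesothelium, 16 (88.9%) were at or above 1 CPM, beside 56.5% of all protein-coding genes. Krt19 was at 938 CPM, Krt18 at 501 CPM, Wt1 at 153 CPM and Msln at 101 CPM. Krt7 was at 1.91 CPM and Aldh1a2 at 1.17 CPM, while Lhx9, at 0.533 CPM, and Tcf21, at 0.183 CPM, were below 1 CPM. Of 9 Müllerian duct markers, 3 (33.3%) were at or above 1 CPM, Cdh1 with 4.72 CPM, Epcam with 4.12 CPM and Ovgp1 with 1.36 CPM. Pax8, a defining one, was at 0.203 CPM. Of 9 fibroblast markers 4 (44.4%) reached 1 CPM, Dcn with 320 CPM, Pdgfra with 8.39 CPM, Col1a1 with 1.57 CPM and Pdgfrb with 1.13 CPM. Lum, Thy1 and Postn were at the lowest level of the table. Of 8 leukocyte markers 3 (37.5%) reached 1 CPM, Cd68 with 13.0 CPM, Cd14 with 3.27 CPM and Csf1r with 1.88 CPM. Ptprc, the pan-leukocyte gene, was at 0.224 CPM. Of 6 endothelial markers 2 (33.3%) reached 1 CPM, Pecam1 with 4.62 CPM and Vwf with 2.81 CPM, and Cdh5 was at 0.183 CPM. Whether any such other cells were present, and what part they had in the Hox levels, was not tested. The most abundant row of the table held 29.7% of the summed CPM, a share that lowers the CPM of every other gene.

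The Hox genes were expressed at low levels. At or above 1 CPM, the level used here for an expressed gene, were 14 of 38 Hox genes (36.8%), against 56.5% of all protein-coding genes. Their median was 0.467 CPM and their highest level 11.1 CPM, against a median of 2.89 CPM over all protein-coding genes. The lowest level of the table, 0.163 CPM, was shared by 4561 rows and was that of 7 Hox genes (18.4%), against 15.6% of all protein-coding genes. The remaining 17 Hox genes lay between it and 1 CPM. Divided by the length of the exons, 10 of 38 (26.3%) were above the median of all protein-coding genes, 0.790 CPM per kb, and 0 were above the upper quartile, 4.98 CPM per kb. The Hox median per kb was 0.142, so that it lay below the median of coding genes on both scales, a description of the list and not a test.

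The lowest level is what the authors' averaging gives to a gene with no reads. Above it, levels of rows with 1 to 6 reads rose in equal steps of 0.0203 CPM, and 99.4% of 4498 such rows lay within 0.15 of a whole read. The number of reads in all 4 libraries together could so be read from low levels, given edgeR's default of 2 added counts per library. A Hox gene at the lowest level had 0 reads, which allows up to 3 reads (the one-sided 95% limit) or 0.0610 CPM above the lowest level. The folds below compare neighbors per kb of exon, with the two-sided exact 95% interval of the ratio of their reads in parentheses, and a bound against a gene with 0 reads uses these 3 reads. These limits, and the intervals below, cover counting error only.

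**Figure D1:**
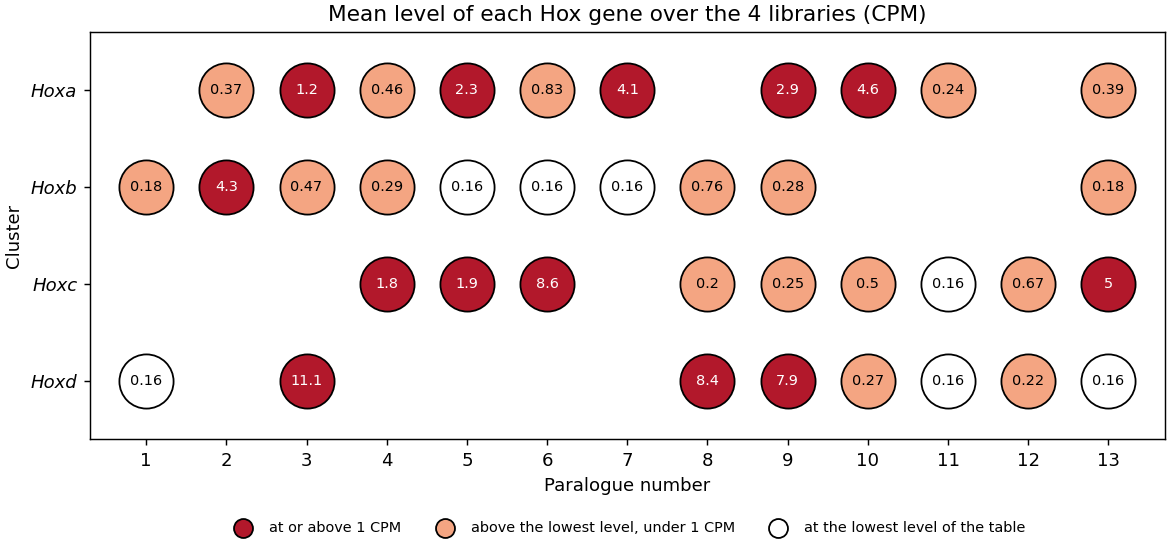
Mean level of 37 Hox genes in CPM, printed in its circle, by cluster (vertical) and paralogue number (horizontal), over the 4 libraries. The 13 dark circles are at or above 1 CPM, the 17 light ones are between that and the lowest level, and the 7 open ones are at the lowest level, 0.16 CPM.

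In Hoxa 6 of 11 genes reached 1 CPM, in Hoxb 1 of 10, in Hoxc 4 of 9 and in Hoxd 3 of 8. At 0.5 CPM it was 7 of 11 in Hoxa and 6 of 9 in Hoxc, so that the order of these clusters depended on the level chosen, while Hoxb was lowest at each level tried. Of the summed Hox level above the lowest, Hoxd held 39.0%, Hoxa 27.9%, Hoxc 25.4% and Hoxb 7.70%. The place of Hoxd rested on Hoxd3, whose exons are partly shared with another gene. With Hoxd3 left out of the total, Hoxd held 27.6%, Hoxa 33.2%, Hoxc 30.1% and Hoxb 9.14%. By place in the cluster, 4 of 8 genes numbered 1 to 3, 6 of 14 numbered 4 to 8 and 4 of 16 numbered 9 to 13 were expressed. Each paralogue number had at least 1 expressed gene, except 11, with 0 of 3, and 12, with 0 of 2.

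Hoxd (chr2:74668310-74765141, 8 genes over 96.8 kb) had a block of 3 expressed genes with genes of 0 to 5 reads on both sides. Hoxd3 was at 11.1 CPM, Hoxd8 at 8.36 CPM and Hoxd9 at 7.93 CPM. Per kb of exon these were 2.61, 2.99 and 3.64, and they were 3 of the 4 highest Hox genes on that scale. Hoxd1, at the 3′ end, was at the lowest level, so that Hoxd3 was at least 79.6-fold higher per kb, counting 3 reads for Hoxd1 over the 4 libraries. On the other side the level broke off between Hoxd9 and Hoxd10, whose ends are 5.10 kb apart. Hoxd10 was at 0.268 CPM, about 5 reads in all, and per kb Hoxd9 was 62.7-fold higher (27.6 to 201). Hoxd12 had 3 reads, and Hoxd11 and Hoxd13, which pattern the limbs, had 0.

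Of the exon bases of Hoxd3, 62.3% are also annotated to Hoxd4 or to Gm28230, an overlapping gene model. Reads in these shared bases could not be given to 1 of the genes, so the level of Hoxd3 may include reads of the others. The part shared with Hoxd4 alone was not separated. The overlap is that of GENCODE M21, where the start and end of Hoxd3 differ from the authors' coordinates. Hoxd8 and Hoxd9 share no exon bases with another gene on their strand.

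The start regions of Hoxd8, Hoxd9 and Hoxd10 are shown because these neighbors stand on both sides of the step. Each runs from 250 bases before to 50 bases after the annotated start on the plus strand, in RefSeq on GRCm38.p6, and capitals mark the CG dinucleotides. The windows are chr2:74704365-74704664, chr2:74697513-74697812 and chr2:74691641-74691940, in this order.
Hoxd8: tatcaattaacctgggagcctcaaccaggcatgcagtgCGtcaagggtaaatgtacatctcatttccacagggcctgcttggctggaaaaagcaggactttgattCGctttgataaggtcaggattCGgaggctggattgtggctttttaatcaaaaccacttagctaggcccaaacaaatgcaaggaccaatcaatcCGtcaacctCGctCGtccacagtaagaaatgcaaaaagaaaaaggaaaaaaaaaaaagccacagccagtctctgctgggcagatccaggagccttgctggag
Hoxd9: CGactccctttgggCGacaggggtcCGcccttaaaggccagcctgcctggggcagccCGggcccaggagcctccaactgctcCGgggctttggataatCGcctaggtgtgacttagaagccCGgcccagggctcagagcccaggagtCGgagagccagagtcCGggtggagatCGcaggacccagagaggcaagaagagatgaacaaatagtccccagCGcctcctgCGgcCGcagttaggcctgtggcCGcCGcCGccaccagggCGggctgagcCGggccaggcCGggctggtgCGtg
Hoxd10: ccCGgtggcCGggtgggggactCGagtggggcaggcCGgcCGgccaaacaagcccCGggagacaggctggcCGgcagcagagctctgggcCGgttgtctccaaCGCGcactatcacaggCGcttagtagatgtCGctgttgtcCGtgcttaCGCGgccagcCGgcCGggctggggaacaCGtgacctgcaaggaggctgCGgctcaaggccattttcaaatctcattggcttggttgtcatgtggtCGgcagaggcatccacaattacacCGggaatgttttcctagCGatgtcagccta

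Hoxd9 and its low neighbor Hoxd10 had 20 and 22 CG, while Hoxd8, expressed like Hoxd9, had 6. Hoxd1 had 29 and Hoxd13 had 37, both with 0 reads. Over the 23 windows found for 21 of 38 Hox genes, the median was 15 CG, as in 18194 windows of other protein-coding genes. The 10 windows of expressed Hox genes had a median of 16 CG, and the 4 windows of Hox genes at the lowest level 27 CG. Other coding genes ran the other way, with a median of 21 CG in windows of expressed genes and 3 CG at the lowest level. With 4 windows from 3 Hoxd genes, this is a description only.

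**Figure D2:**
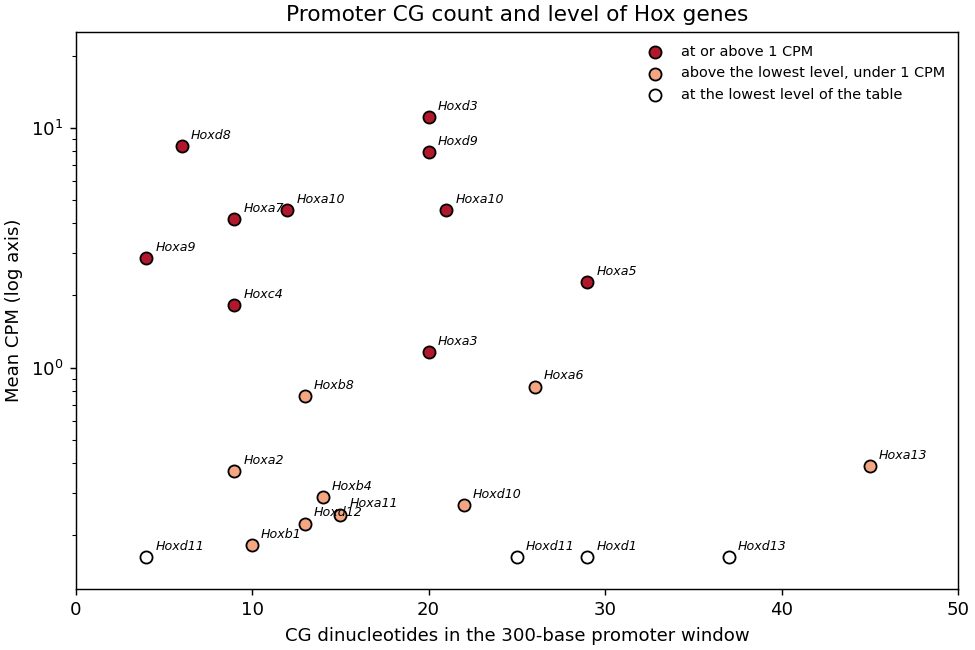
CG dinucleotides in each of the 23 start windows of 300 bases (horizontal) against the mean level of the gene in CPM (vertical, log axis). Hox genes at or above 1 CPM had 4 to 29 CG, and those at the lowest level 4 to 37 CG, so that the ranges overlap.

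Short motifs were searched on both strands of the same windows. The CCAAT box was in 14 of 23 Hox windows (60.9%), against 37.4% of all 32851 windows in the table. TATAAA was in 3 Hox windows (13.0%), against 13.6% of all windows. TGATNNAT, the form bound by Pbx-Hox pairs, was in 4 (17.4%) against 8.85%, and TAATTA, a homeodomain core, in 2 (8.70%) against 5.29%. None of the 10 windows of expressed Hox genes held TGATNNAT or TAATTA. In 11262 windows of other expressed protein-coding genes the shares were 3.81% and 2.35%, so that none of 10 is near what those genes show. The motifs can overlap, and a match is only a run of letters.

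Hoxc (chr15:102921103-103036843, 9 genes over 116 kb) was expressed at both ends and not in between. At the 3′ end Hoxc4 was at 1.83 CPM, Hoxc5 at 1.88 CPM and Hoxc6 at 8.59 CPM. Hoxc6, a thoracic and mammary gene in development, was the second highest of all Hox genes per kb, with 3.50. Between Hoxc6 and Hoxc8 the level broke off: Hoxc8 had 2 reads in all, and Hoxc6 was 242-fold higher per kb (67.0 to 2017). Hoxc9, with 4 reads, and Hoxc10, at 0.503 CPM, stayed low, and Hoxc11 had 0 reads. At the 5′ end Hoxc12 was at 0.668 CPM and Hoxc13, known for its role in hair and nail growth, at 5.02 CPM. Per kb Hoxc13 was 4.03-fold higher than Hoxc12 (2.65 to 6.31) and came next in order after Hoxd3. The annotated span of Hoxc5 runs over Hoxc6, Hoxc8, Hoxc9 and Hoxc10, and 5.37% of its exon bases are shared with Hoxc10.

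Hoxa (chromosome 6, 11 genes over 105 kb) was the cluster in which every gene had reads. Hoxa10 was highest of those named here, at 4.55 CPM, followed by Hoxa7 at 4.15 CPM, Hoxa9 at 2.86 CPM, Hoxa5 at 2.28 CPM and Hoxa3 at 1.16 CPM. Below 1 CPM were Hoxa6 at 0.834 CPM, Hoxa4 at 0.460 CPM, Hoxa13 at 0.388 CPM, Hoxa2 at 0.371 CPM and Hoxa11 at 0.244 CPM. From Hoxa2 to Hoxa7 the odd-numbered genes were thus above 1 CPM and the even-numbered genes below it. This alternation depended on the level chosen, since Hoxa3 was 0.997 CPM above the lowest level and Hoxa6 was above 0.5 CPM.

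Part of this alternation also depended on the gene length used. Hoxa3 has 6014 exon bases, the most of all Hox genes, and per kb it was at 0.166, beside 0.117 for Hoxa2 and 0.186 for Hoxa4. Hoxa4 was 1.12-fold higher than Hoxa3 on that scale (0.602 to 2.09). With the length of the longest transcript, Hoxa3 was at 0.385 per kb and again above Hoxa2 and Hoxa4. The annotated span of Hoxa3 overlaps those of Hoxa2, Hoxa4, Hoxa5 and Hoxa6, and 8.01% of its exon bases are shared with Gm28308. Hoxa6, which has the fewest exon bases, 874, was at 0.768 per kb, below 1.13 for Hoxa5 (1.47-fold, 0.984 to 2.24) and 1.39 for Hoxa7 (1.81-fold, 1.24 to 2.70). Per kb, the run from Hoxa2 to Hoxa4 was low, and Hoxa5 to Hoxa10 lay between 0.483 and 1.39.

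The tract genes of Hoxa parted at Hoxa11. Hoxa10, needed for the uterus to receive the embryo, was at 1.34 CPM per kb and Hoxa11, its neighbor, at 0.0357, from about 4 reads. Hoxa10 was 37.6-fold higher (14.5 to 140), with the gene ends 10.9 kb apart. Hoxa9, the oviduct gene, was at 0.483 per kb, and Hoxa13 had about 11 reads in all.

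Hoxb (chr11:96194316-96368256, 10 genes over 174 kb) had only Hoxb2 above 1 CPM. Hoxb2, which patterns the hindbrain, was at 4.32 CPM. Its neighbors were far lower, with 1 read for Hoxb1 and 0.473 CPM for Hoxb3, and per kb Hoxb2 was 16.3-fold higher than Hoxb3 (9.82 to 30.2). Hoxb5, Hoxb6 and Hoxb7, the middle of the cluster, had 0 reads. Hoxb8 was at 0.762 CPM and at least 5.76-fold higher per kb than Hoxb7. Hoxb4 and Hoxb9 were at 0.288 and 0.282 CPM, about 6 reads each, and Hoxb13 had 1 read.

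**Figure D3:**
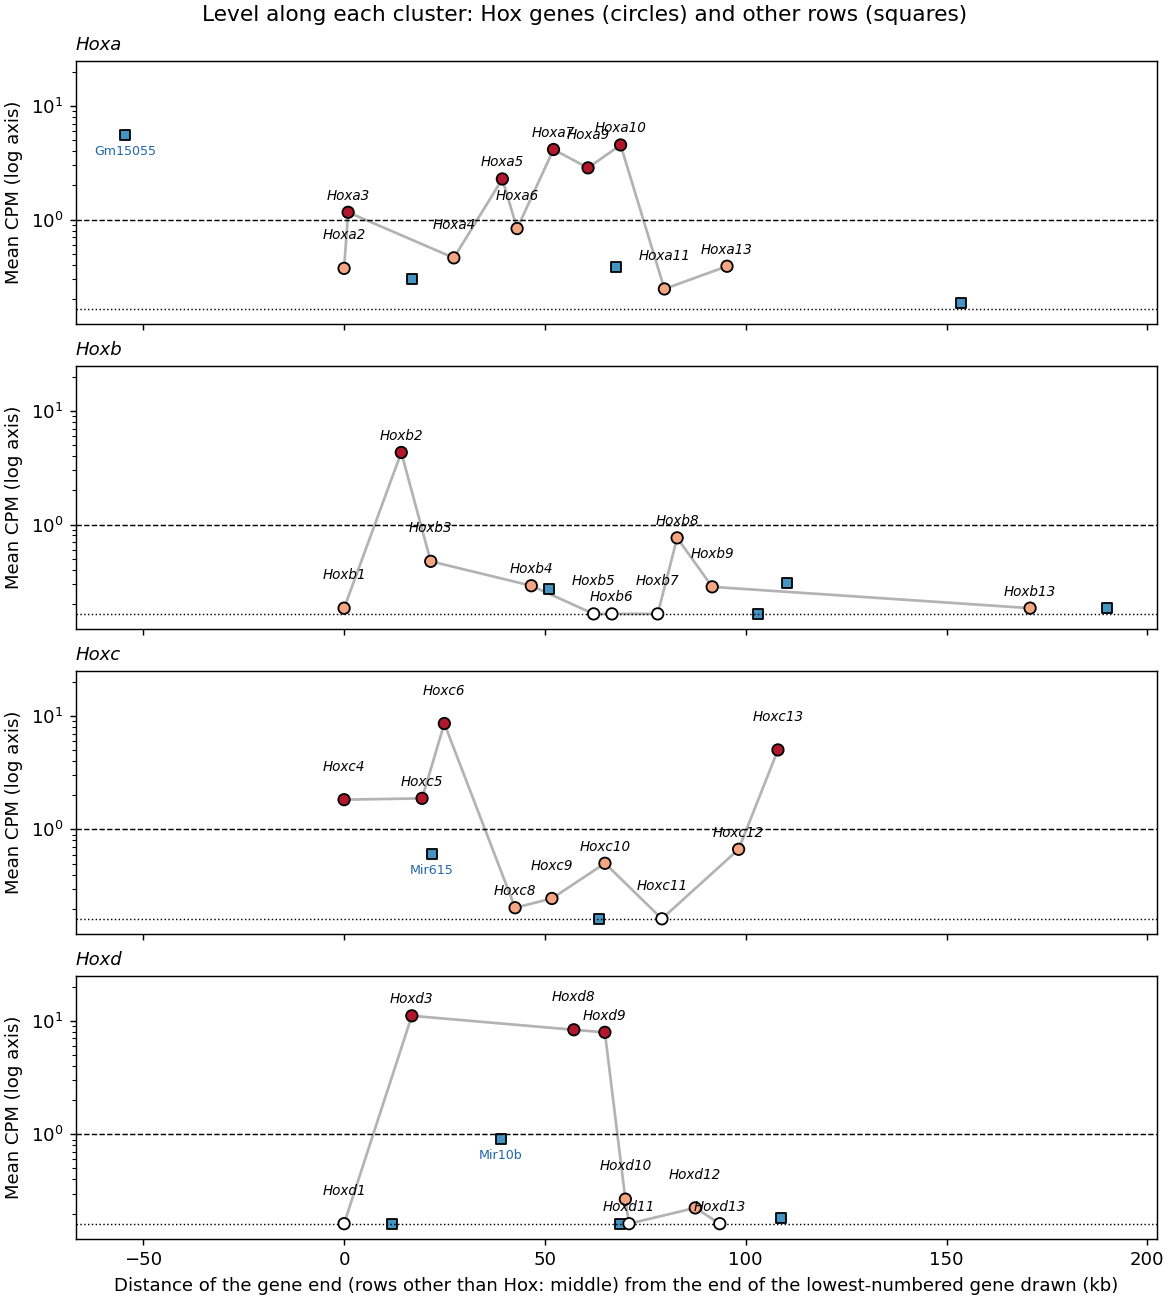
Mean CPM (vertical, log axis) of Hox genes (circles, colored as expressed, low or at the lowest level) and of other rows within 60 kb (squares) against the distance of the gene end from the end of the lowest-numbered gene drawn in kb. The dashed line is 1 CPM and the dotted line the lowest level, 0.163 CPM, and levels break off after Hoxa10, Hoxc6 and Hoxd9.

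Of the 34 pairs of neighbors within the clusters, both genes were expressed in 6, neither in 15 and only 1 in 13. Near or inside the clusters lay 14 other rows of the table. Gm15055, a long non-coding RNA named Halr1 in GENCODE M21 and lying outside the 3′ end of Hoxa, was at 5.54 CPM, the only one of them above 1 CPM. Evx1 and Evx2, the homeobox genes beyond Hoxa13 and Hoxd13, had 1 read each.

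The clusters also hold miRNA genes, which repress mRNAs, Hox mRNAs among them, through bases 2 to 8 of the mature strand, the seed. Reads in their rows come from the large RNA fraction, so they measure primary or host transcripts and not mature miRNA. The mature strands are shown because the miR-10 and miR-196 families each share a seed across clusters. Sequences are from RefSeq on GRCm38.p6, and capitals mark the seed.
miR-10a-5p: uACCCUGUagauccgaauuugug
miR-10b-5p: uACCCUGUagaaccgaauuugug
miR-196a-5p: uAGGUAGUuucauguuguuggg
miR-196b-5p: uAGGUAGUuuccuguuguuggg
miR-615-3p: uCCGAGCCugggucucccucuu

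Counted from the 5′ end, miR-10a-5p and miR-10b-5p differ by U12A, and miR-196a-5p and miR-196b-5p by A12C. Mir10b, within the span of Hoxd3, was at 0.911 CPM, and Mir10a, within that of Hoxb4, at 0.267 CPM. Mir615, within Hoxc5, was at 0.609 CPM and Mir196b, within Hoxa9, at 0.386 CPM. Mir196a-1 in Hoxb and Mir196a-2 in Hoxc, which give the same 5p strand, had 0 reads. The hosts of Mir10b, Mir615 and Mir196b were thus expressed, and that of Mir10a was not, while Mir196a-2, with 0 reads, also lies within the span of an expressed gene, Hoxc5. Each of these rows lies on the strand of its cluster, and the share of reads counted for both was not tested.

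Of the 14 expressed genes, those named here stood per kb in the order Hoxd9, Hoxc6, Hoxd8, Hoxd3, Hoxc13, Hoxa7, Hoxa10, Hoxb2, Hoxa5, Hoxc4, Hoxc5, Hoxa9 and Hoxa3. The spread of a gene was taken from the authors' dispersion together with its read counting error, as the expected coefficient of variation (CV) of a single library. Of the 13 steps down the order of all 14, 10 were within the combined CV of the neighbors. The other 3 were from Hoxd3 to Hoxc13 (1.32-fold), from Hoxa5 to Hoxc4 (1.74-fold) and from Hoxa9 to Hoxa3 (2.92-fold). The design behind the dispersion is not given in the sources used here, so the spread may leave out any difference between the lines. With the longest transcript as length, 6 of the 14 values moved by more than 1 CV, and Hoxc6 came first with 5.33 CPM per kb, before Hoxd3 with 3.68.

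**Figure D4:**
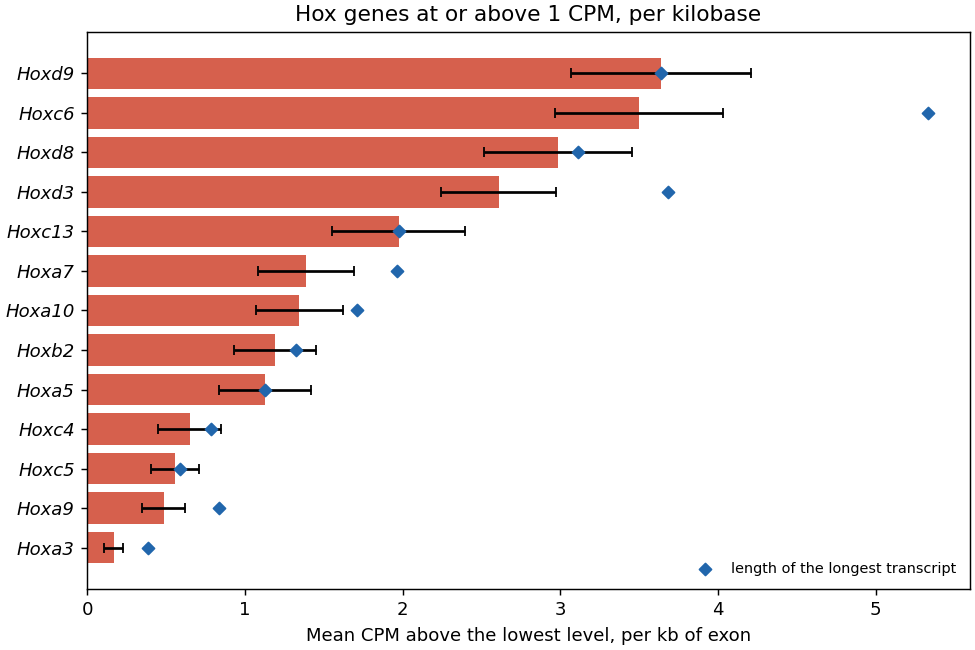
Mean CPM above the lowest level per kb of exon for 13 Hox genes at or above 1 CPM, with the expected CV of a single library as error bars and diamonds for the length of the longest transcript. Values ran from 3.64 for Hoxd9 to 0.166 for Hoxa3, and most neighbors overlap.

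The square root of the dispersion, the biological CV, was 10.9% to 23.1% over the 14 genes, with a median of 16.6%. Hoxd3 had the lowest and Hoxa3 the highest. It was above the median of 201 coding genes of like level for 4 of 14 genes.

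The partners of Hox proteins had a higher median level than the Hox genes, with a range that overlapped theirs. Of 11 TALE cofactors and related genes, 9 reached 1 CPM, with a median of 3.51 CPM per kb against 0.142 for the Hox genes. Pbx2 was at 7.53 CPM per kb, Meis2 at 4.22 and Meis1 at 3.51, of which Pbx2 and Meis2 were above all Hox genes. Pknox1 at 1.88, Meis3 at 1.24 and Pbx3 at 1.21 lay within the range of the expressed Hox genes. Pbx4, at 0.0906 per kb, and Pknox2, at 0.00586, were low. In all 5 of 11 were above Hoxd9, the highest Hox gene, and the list without Pbxip1 and Hmgb1, which are not TALE proteins, had 7 of 9 at 1 CPM and a median of 1.88 CPM per kb.

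The mRNAs of the chromatin machinery of both kinds were present, while protein was not measured. All 31 Polycomb genes reached 1 CPM, with a median of 6.24 CPM per kb. Ezh2, the H3K27 methyltransferase, was at 4.31, its paralogue Ezh1 at 9.37, Bmi1 at 11.8 and Cbx8 at 32.8. Lower were Phf19 at 0.361, Cbx7 at 1.02, Cbx2 at 1.25 and Scmh1 at 1.39. Of 24 trithorax genes and H3K27 demethylases 23 reached 1 CPM, with a median of 6.88 CPM per kb. The exception was Uty, the Y-linked relative of Kdm6a. Kmt2a, the methyltransferase MLL1 that maintains Hox expression, was at 5.45 CPM per kb, Kdm6a at 8.69 and Kdm6b at 7.83. All 9 genes of cluster architecture reached 1 CPM, with a median of 20.9 CPM per kb, Rad21 of cohesin at 49.6 and Ctcf at 8.58.

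Genes listed as inducers of the clusters, with related genes such as Gmnn (geminin), were uneven, from 0.183 to 80.4 CPM. Of these 10 genes 6 reached 1 CPM (60%), near the 56.5% of all protein-coding genes. Cdx4, a caudal factor upstream of posterior Hox genes, was at 7.51 CPM, while its relatives Cdx2 and Cdx1 were at 0.244 and 0.203 CPM. The biological CV of Cdx4 was 25.1%, beside a median of 12.9% for 201 coding genes near the level of Hoxd9, 7.93 CPM. Whether the mean of Cdx4 holds in each library was not tested. Of 19 retinoic acid genes 12 reached 1 CPM (63.2%), also near the share of all protein-coding genes. The receptors Rara, Rarg and Rxra were at 15.0, 12.3 and 7.29 CPM per kb. Rarb, itself a target of retinoic acid, was at 1.29, and Cyp26b1, which breaks retinoic acid down, at 1.23. Of the enzymes that make it, Aldh1a1 was at 4.64, Aldh1a2 at 0.444 and Aldh1a3 at 0.0690 CPM per kb.

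Of 59 genes of other homeobox families 20 reached 1 CPM (33.9%), beside 36.8% of the Hox genes, and their median was 0.0807 CPM per kb. Tgif2, at 8.44 CPM per kb, and Cux1, at 7.19, were the highest of them. Of 23 genes around the clusters 18 reached 1 CPM, with a median of 5.03 CPM per kb, such as Hnrnpa1 and Cbx5 beside Hoxc, Skap2 beside Hoxa, Atf2 beside Hoxd and Nfe2l1 beside Hoxb. Below 1 CPM were Skap1 and Ttll6 beside Hoxb, Nfe2 beside Hoxc, and Evx1 and Evx2, at 0.183 to 0.403 CPM.

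**Figure D5:**
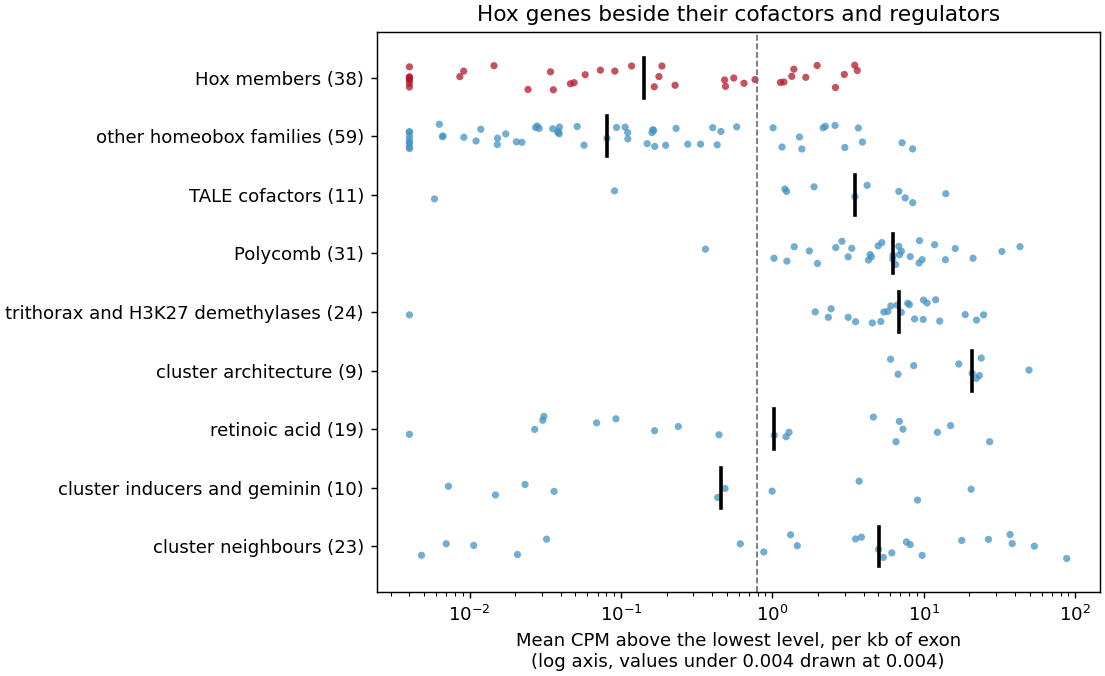
Mean CPM above the lowest level per kb of exon (horizontal, log axis) of the 38 Hox genes and of the members of 8 lists, each point a gene and each black bar a median, with the number of genes in parentheses. The dashed line is the median of protein-coding genes, 0.790, and the Hox median of 0.142 and that of other homeobox families lie left of it.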

How the data were processed

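RNA from 2 libraries of ID8-PW2 cells and 2 of ID8-P0 cells was sequenced as stranded large RNA, ribosomal RNA having been reduced with duplex-specific nuclease. According to the methods and the submitters' processing notes, the authors demultiplexed reads with CASAVA 1.8.2, used Trimmomatic 0.22 for trimming, TopHat2 2.0.6 with Bowtie2 2.0.2 for mapping, own scripts for sums per gene and edgeR 3.20.8 for the analysis. Reads with several hits were kept, so that reads of similar paralogues may be shared. The notes list a human build, while the identifiers in the file are mouse. The build of its coordinates is not given in the sources used here. All 38 Hox identifiers are in GENCODE M21 on GRCm38, where 28 agree in their start or their end.

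The log2 CPM in the deposited table is the authors' mean over the 4 libraries and was turned into CPM. The dispersion is a score per gene made by the authors, whose square root was taken as the biological CV. The 4 columns of counts carry headings found in none of the labels. None of these 4 columns was assigned to a sample or read, and the intended test between the groups, values per library and depth per library could not be had. The lowest level implies a mean library total of 12.3 M reads. The columns of the authors' own comparison (fold change, its log2, p-value, FDR and direction) were not used.

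Levels were divided by the union of exons in GENCODE M21, after subtracting the lowest level. List medians per kb used genes with a length (98.1% of coding genes). Intervals of folds between neighbors are exact two-sided intervals of the ratio of reads (Clopper-Pearson, 95%), and the limit for 0 reads is 3 reads, one-sided. The recovery of read numbers was run on simulated Poisson counts, averaged with the same formula that was then inverted. It checks the arithmetic only, and cannot show that the authors' averaging follows that formula. Results for some genes are not reported here, and every other Hox gene is named. Members of other lists were to be named by their change between groups, a rule that could not be applied, and those named here were chosen after their values were seen. The Hox genes and lists were chosen with earlier results of these data known. Sequences are from RefSeq on GRCm38.p6. Computing used Python 3.11.15, numpy 2.4.6, pandas 2.3.3, scipy 1.17.1 and matplotlib 3.10.9. Alternatives were 0.5 and 2 CPM, 1 CPM above the lowest level, the longest transcript as length, and shares of the clusters without Hoxd3.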

Additional observations from a re-analysis of the deposited data

How the results depend on the processing

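The alternatives were chosen after seeing the data. Expressed Hox genes numbered 18 at 0.5 CPM, 11 at 2 CPM and 13 at 1 CPM above the lowest level, beside the 14 reported, and 61.0%, 52.4% and 55.7% of all protein-coding genes, beside 56.5%. Hoxb had 2 such genes at 0.5 CPM in place of 1, Hoxb2 and Hoxb8, and Hoxc had 2 at 2 CPM in place of 4, Hoxc6 and Hoxc13. With Hoxd3 left out, the share of the summed Hox level was 27.6% for Hoxd, beside 39.0%, and Hoxa came first with 33.2%. Per kb, 8 of 14 values stayed within 1 CV with the longest transcript as length. Those that moved were Hoxa3 (0.385), Hoxa7 (1.96), Hoxa9 (0.836), Hoxa10 (1.71), Hoxc6 (5.33) and Hoxd3 (3.68). No paired analysis was possible because the columns of reads could not be matched to libraries. For the same reason other ways to test the groups against each other (another count tool and test, other scaling, filters and thresholds, leaving out libraries) were not run. Depth limits what can be said of the 16 Hox genes with 6 reads or fewer over all 4 libraries.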
